A study of Apis mellifera with 18 samples.

Results

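The comparison described here is that of control honey bee brains at 5 d (C_5d) with control brains at 1 d (C_1d), that is, early adult life without insecticide. It takes 6 of the 18 libraries of the study, the 3 of C_5d and the 3 of C_1d, chosen by their labelled group and age. Worker bees of *Apis mellifera* were taken as they emerged from frames of 3 colonies, caged, kept in darkness in an incubator and fed 2 mL of a 50% sucrose solution that held no dinotefuran. The remaining libraries are controls at 10 d (C_10d) and bees fed the same solution with 0.01 mg/L of the neonicotinoid dinotefuran (DT) and sampled at 1 d (DT_1d), 5 d (DT_5d) and 10 d (DT_10d), with 3 libraries each. Every library was made from 15 pooled brains. The labels do not say whether the pools of a group came from separate cages, so that p-values measure the spread between these pools. Levels are given as scaled FPKM, that is, the deposited fragment abundance per transcript length and library size, divided by a factor for each library. The factor is the median ratio of the library to the geometric mean of the 9119 genes above 0 in all 18 libraries.

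As background, a worker bee leaves the cell with a cuticle that is still being hardened and darkened, and spends its early days inside the nest. During this time the hypopharyngeal glands, which lie in the head around the brain, are known to develop and to make major royal jelly proteins, the food that nurses give to larvae. In older workers that leave the nest the same glands are known to make α-glucosidase, which splits sucrose. In the brain itself, early adult life is known as a time when the mushroom bodies grow and synapses are rearranged, under the influence of juvenile hormone, ecdysone and biogenic amines.

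The 6 libraries did not fall into their labelled groups. C_1d replicates 2 and 3 were nearly alike, with a Pearson correlation of 0.981 across 7901 genes with a mean FPKM of at least 1, which is a description across genes and not across independent replicates. C_1d replicate 1 correlated with them at only 0.898 and 0.892, but at 0.946, 0.939 and 0.937 with the C_5d libraries and at 0.960 with C_10d replicate 1. It differed more than 2-fold from C_1d replicate 2 in 1065 genes and from C_5d replicate 3 in 458 genes. C_5d replicate 3 also stood apart to some degree, at 0.946 and 0.930 from the other C_5d libraries, which correlated at 0.977 with each other. The scaling factors of these libraries were high as well, 1.65 for C_1d replicate 1 and 1.81 for C_5d replicate 3 against 0.770 to 1.04 for the other 4, and their 10 most abundant genes took 39.7% and 36.8% of the summed FPKM against 52.7% to 55.7%. Between 9538 and 9660 of 9939 genes were above 0 in each of the 6 libraries. Counts of called genes are therefore given with and without C_1d replicate 1. For many single genes only the difference without it is printed. Leaving it out is a choice made after libraries had been compared, which leaves C_1d with 2 libraries.

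**Figure D1:**
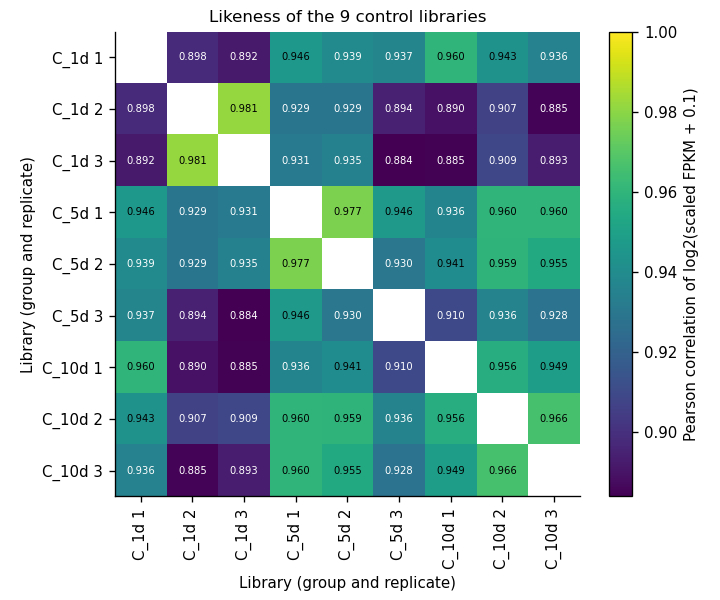
Pearson correlation of log2(scaled FPKM + 0.1) between each pair of the 9 control libraries (rows and columns, group and replicate), across 7901 genes; the colour scale and the number in each square give the correlation. The square of C_1d 2 and C_1d 3 reads 0.981, whereas C_1d 1 reads 0.898 and 0.892 with them and 0.960 with C_10d 1.

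The labelled tissue was checked with marker genes. The neuron markers Syt1 (synaptotagmin, the calcium sensor of synaptic vesicles), LOC408465 (vesicle-associated membrane protein 2) and brp (a scaffold of the presynaptic active zone) were present in all 6 libraries, with a summed level of 44.6 to 48.3 in C_1d and 49.9 to 67.7 in C_5d. The glia markers GlnS (glutamine synthetase) and Eaat-2 (a glutamate transporter) summed to 350.1 to 376 in C_1d and 409 to 443 in C_5d. Markers of tissues next to the brain were present too. The 5 gland markers (Mrjp1 to Mrjp4 and Hbg3) summed to 7342 in C_1d replicate 1, to 49961 and 65064 in C_1d replicates 2 and 3, and to between 12658 and 13425 in C_5d. This sum leaves out the gland genes apisimin (LOC406093) and glucose oxidase (LOC406081). In the paper's unscaled list of abundant transcripts, LOC406093 is nearly the same in controls of 1 d and of the middle age, and LOC406081 is higher at the middle age. The sum therefore does not stand for all gland genes. The 4 opsins of the retina summed to 692 in C_1d replicate 1, to 289 and 272 in the other C_1d libraries and to between 461 and 549.5 in C_5d, and the 7 troponin genes of muscle to between 625 and 1209 in C_1d and between 632 and 903 in C_5d. Without C_1d replicate 1, 2 of the 7 were called lower, beside 5.04% of all genes, and their median was -0.16. TpnCIIa and TpnCIIb then fell by 1.23 and 1.40 on the log2 scale, but did not pass unscaled. Leaving out C_5d replicate 3 as well left 1 of the 7 called, and none passed with all 6 libraries. The sign of TpnCIIa turned when other libraries were left out. How much of each library came from these tissues was not tested, and in pooled tissue fewer cells of a type and less RNA per cell cannot be told apart.

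With all 6 libraries, 25 of 9352 genes were upregulated at 5 d (0.267% of the genes tested) and 7 were downregulated (0.0749%), at a limma adjusted p under 0.05 and a difference of more than 1 on the log2(scaled FPKM + 0.1) scale. In all 32 of these genes the C_1d and C_5d libraries did not overlap, which was also so for 1526 of the 9352 genes tested (16.3%). At an unadjusted p under 0.05 and the same size of difference, 141 genes were higher and 196 lower at 5 d. All 32 are known here only by their locus numbers, with no role given for them in the sources used, and they lay on 15 linkage groups. C_1d replicate 1 was nearest to C_5d among the C_1d libraries in 23 of the 25 upregulated genes and in 6 of the 7 downregulated genes. Without it, all 32 remained past the threshold in the same direction. Leaving out any other library of the 6 left between 1 and 6 upregulated genes and between 0 and 4 downregulated ones.

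The largest increase was that of LOC107963999 on linkage group 15 (LG15 of Amel_HAv3.1, 6964546 to 6966223). Its level was 4.41, 0.0357 and 0.117 in C_1d replicates 1 to 3, and 11.7, 11.96 and 7.97 in C_5d, so that C_1d replicate 1 lay far nearer to C_5d than the other 1-d libraries did. The log2 difference was 4.36 ± 0.85 (SE, adjusted p = 0.0387), and 5.93 ± 0.35 without C_1d replicate 1. The next gene on the linkage group, LOC410603 (6967145 to 6969218), read 0.835, 0.0141 and 0.104 in C_1d and 1.42, 1.91 and 1.21 in C_5d (log2 difference 2.51 ± 0.54, adjusted p = 0.0488). The gene after that is Or63, an odorant receptor gene (6970551 to 6976596), whose levels of 1.35, 0.295 and 0.314 in C_1d and 1.11, 0.976 and 0.980 in C_5d overlapped through C_1d replicate 1. Without that library it was upregulated by 1.47 ± 0.30 (adjusted p = 0.00294). These 3 genes are the only ones the annotation starts in this stretch, and they were put side by side here after their values were seen.

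The smallest adjusted p was that of LOC724900 (LG3, 12753760 to 12765869), with levels of 8.69, 6.97 and 6.69 in C_1d and 19.7, 21.3 and 18.8 in C_5d. The log2 difference was 1.41 ± 0.15 (adjusted p = 0.00108), and all 3 C_1d libraries lay close together. The most abundant upregulated gene named was LOC725114 (LG15, 5573219 to 5574053), at 320.1, 265 and 248 in C_1d and 1081, 995 and 739 in C_5d (1.75 ± 0.30, adjusted p = 0.0315). LOC408306 read 27.9, 14.3 and 8.28 in C_1d and 48.4, 42.7 and 58.2 in C_5d (1.72 ± 0.29, adjusted p = 0.0315). The other upregulated genes that the naming rule takes, LOC411358, LOC552453, LOC724920, LOC107965323, LOC551735, LOC409409 and LOC551802, had log2 differences of 1.84, 1.82, 1.66, 1.63, 1.50, 1.46 and 1.43. Of the downregulated genes whose higher group mean reached FPKM 1, LOC412630 fell from 12.5, 27.1 and 34.3 to 9.32, 11.2 and 6.91, LOC724811 from 25.2, 47.2 and 62.1 to 22.0, 21.2 and 19.0, and LOC100577844 from 6.87, 11.9 and 12.7 to 5.15, 5.38 and 4.52. Their log2 differences were -1.33 ± 0.28, -1.01 ± 0.22 and -1.01 ± 0.21, with adjusted p of 0.0488, 0.0488 and 0.0458, just inside the threshold.

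**Figure D2:**
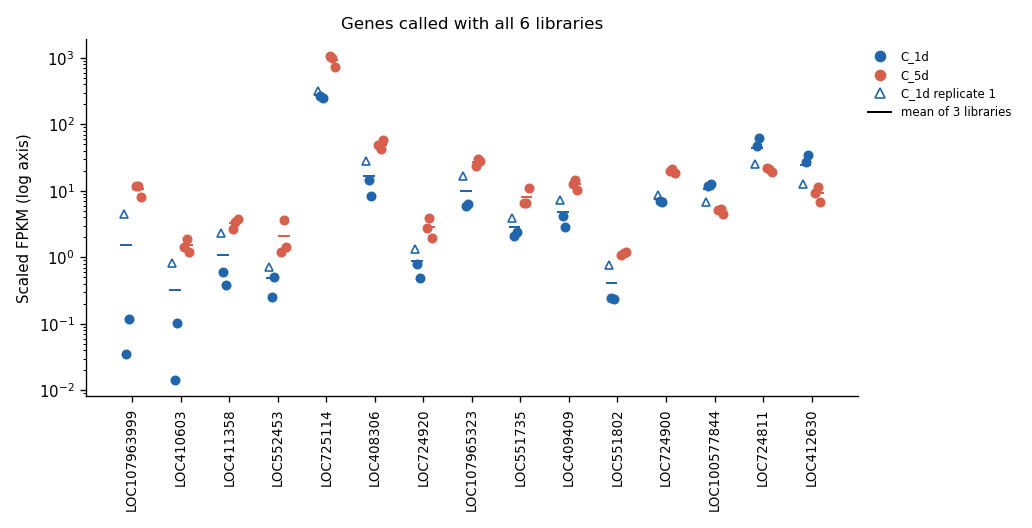
Scaled FPKM (log axis) of the 15 genes named among those called with all 6 libraries, ordered by their log2 difference; points are libraries of C_1d (blue) and C_5d (red), the open triangle is C_1d replicate 1 and lines are means of 3 libraries. C_1d and C_5d do not overlap in any gene shown, and the triangle of LOC107963999 at 4.41 lies near the C_5d points, far above the other C_1d points at 0.0357 and 0.117.

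Several of these genes were highest at 5 d and lower again at 10 d. In C_10d, LOC725114 read 27.5, 54.9 and 55.2, under its level at 1 d, and LOC724900 read 4.98, 4.46 and 3.62. LOC408306 read 14.8, 14.7 and 14.8. Of the 25 upregulated genes, 18 had all C_10d libraries under all C_5d libraries, against 8.29% of all genes tested. That count shares the C_5d libraries with the comparison that chose the genes. In the dinotefuran-fed bees, which share no library with it, 8 of the 25 had all DT_10d libraries under all DT_5d libraries, against 22.7% of all genes tested.

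Without C_1d replicate 1, 264 of 9343 genes were upregulated at 5 d (2.83%) and 471 downregulated (5.04%), including the whole set of 32. The numbers were 264 and 401 when C_5d replicate 3 was left out too. The split between directions depended on the scaling, since with the FPKM as deposited the median gene was 0.58 higher at 5 d on the log2 scale, and 1211 genes were then called higher and 188 lower. With quantile normalization 270 were higher and 349 lower. Under all 3 scalings 231 genes were called higher and 156 lower. The median distance from start to end in the genome was 7096.5 bp for the upregulated genes and 2774 bp for the downregulated genes, against 4137 bp for all tested. In 695 of the 735 genes (94.6%) C_1d replicate 1, which had no part in calling them, lay nearer to the C_5d mean than to the mean of the other C_1d libraries, against 64.2% of all genes tested. Both means come from the libraries that called these genes. The means were thus chosen to lie apart in the 735 genes but not in all genes tested, and the shares are unlike in that.

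Among the most abundant transcripts that differed were those of the royal jelly proteins. At 5 d, Mrjp1, Mrjp2, Mrjp3, Mrjp4, Mrjp5 and Mrjp7 were lower than in C_1d replicates 2 and 3, Mrjp6 and Mrjp9 were higher, and Hbg3, the α-glucosidase of the gland, was about 107-fold higher. With all 3 C_1d libraries none of the 9 Mrjp genes and neither of the 2 α-glucosidase genes (Hbg2 and Hbg3) passed the threshold. C_1d replicate 1 lay under all C_5d libraries in Mrjp1, Mrjp2, Mrjp3, Mrjp4, Mrjp5 and Mrjp7. The Mrjp genes stand side by side on LG11 between 2268450 and 2325880, in the order Mrjp3, Mrjp1, Mrjp4, Mrjp6, Mrjp5, Mrjp2, Mrjp7, Mrjp8 and Mrjp9, so that the upregulated Mrjp6 lies between downregulated neighbours. As these genes are close copies that may share reads, values of single members are uncertain to that extent.

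Mrjp1, the most abundant protein of royal jelly, read 1432 in C_1d replicate 1, 30564 and 39732 in C_1d replicates 2 and 3, and 4086, 3194 and 3406 in C_5d. C_1d replicate 1 was thus under all C_5d libraries and the others were far over them. The log2 difference was -1.76 ± 1.10 (adjusted p = 0.373) with all libraries and -3.30 ± 0.82 (adjusted p = 0.0101) without C_1d replicate 1. The decline went on, to 5.07, 21.4 and 54.9 in C_10d. The log2 difference was also negative unscaled, at -1.50 with all libraries and -2.69 without C_1d replicate 1. In the paper's list of abundant transcripts, which gives unscaled group means, Mrjp1 is instead higher in controls of the middle age than in controls of 1 d. That list also has Mrjp1 far lower in fed bees of the middle age than in controls, the reverse of the DT_5d and C_5d levels found here. The paper's quantitative PCR likewise has Mrjp1 lower in fed bees than in controls at the age of C_5d. The cause of this conflict was not tested. Mrjp7 showed the largest decrease of the 471, from 824 and 907 (5.67 in C_1d replicate 1) to 11.5, 11.0 and 8.45 in C_5d, a log2 difference of -6.39 ± 0.27 (adjusted p = 2.07e-09). Mrjp2, Mrjp3, Mrjp4 and Mrjp5 fell by 4.54, 3.28, 5.06 and 1.81 on the log2 scale without C_1d replicate 1, with adjusted p of 3.07e-05, 0.00839, 1.34e-04 and 0.0225. With quantile normalization Mrjp1, Mrjp3 and Mrjp5 were lower by 2.50, 2.52 and 0.80 and did not pass the threshold (adjusted p = 0.0614, 0.0582 and 0.371), whereas Mrjp2, Mrjp4 and Mrjp7 did.

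Mrjp6 went the other way, from 341, 133 and 125 in C_1d to 741, 593 and 703 in C_5d, and its groups did not overlap even with C_1d replicate 1 (log2 difference 1.92 ± 0.49, adjusted p = 0.0678, and 2.39 ± 0.49, adjusted p = 0.00287, without that library). In C_10d it was back at 25.0 to 114. Mrjp9 was at 18.7 and 27.8 in C_1d replicates 2 and 3, 50.1 in C_1d replicate 1 and 58.3, 51.9 and 40.7 in C_5d (1.12 ± 0.21 without C_1d replicate 1, adjusted p = 0.00165). Mrjp8, at 10.4, 9.05 and 4.43 in C_5d, differed by 0.97 ± 0.29 and did not pass the fold threshold. Hbg3 (LG6, 4602439 to 4613520) read 86.2 and 64.4 in C_1d replicates 2 and 3 but 5219.8 in C_1d replicate 1, and 7519, 8127 and 8522 in C_5d. Its log2 difference was 4.71 ± 1.19 (adjusted p = 0.0676) with all libraries and 6.75 ± 0.62 (adjusted p = 3.89e-06) without C_1d replicate 1, and the C_1d and C_5d libraries did not overlap in either case. It stayed at 3329 to 8918 in C_10d. The DT_1d libraries, which were also taken at 1 d, read 37239 to 63551 for Mrjp1 and 124 to 943 for Hbg3, so that 5 of the 6 libraries of 1-d bees had high Mrjp1 and low Hbg3 and only C_1d replicate 1 did not.

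**Figure D3:**
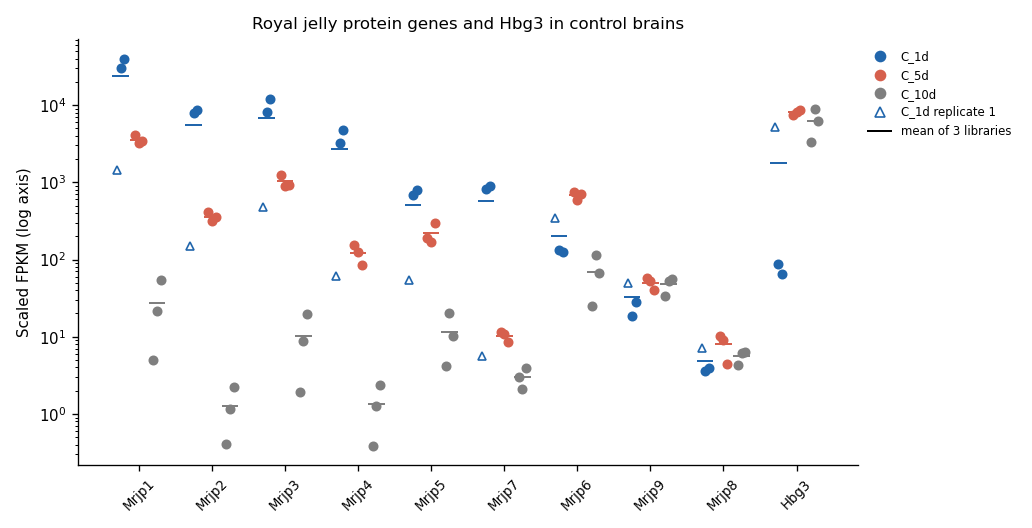
Scaled FPKM (log axis) of the 9 royal jelly protein genes and Hbg3 in the control libraries of 1 d (blue), 5 d (red) and 10 d (grey); the open triangle is C_1d replicate 1 and lines are means of 3 libraries. The triangle lies under the C_5d points for Mrjp1 to Mrjp5 and Mrjp7, and at 5219.8 for Hbg3 it lies near the C_5d points, far above the C_1d points at 86.2 and 64.4.

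Several genes known only by their locus numbers differed as much as the gland genes, and are named here after their values were seen. LOC726737 (LG5) read 2.39 and 1.59 in C_1d replicates 2 and 3, 77.0 in C_1d replicate 1 and 117, 130.0 and 116 in C_5d, a log2 difference of 5.88 ± 0.33 without C_1d replicate 1 (adjusted p = 2.63e-08) and of 4.14 ± 0.93 with it (adjusted p = 0.0520). LOC406114 (LG13) rose from 16.2 and 31.7 (211 in C_1d replicate 1) to 555, 564 and 463 and was back at 3.53 to 17.8 in C_10d. LOC725804 and LOC725838, which follow each other on LG8 between 10430848 and 10451042, fell from 2676 and 2643 to 49.9, 75.1 and 29.2, and from 232 and 213 to 4.36, 6.87 and 2.32. C_1d replicate 1 read 21.3 and 2.33 for them, at or under the C_5d range.

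Genes of the cuticle were mostly lower at 5 d. Of 26 tested, 12 fell and none rose without C_1d replicate 1, beside 5.04% and 2.83% of all genes (8 fell with C_5d replicate 3 left out as well). The median difference was -1.13 on the log2 scale against 0.0041 over all genes, and with all 6 libraries none passed. The median stayed negative unscaled (-0.53) and with quantile normalization (-0.81). CPF2, a cuticular protein of the CPF family, read 3586 and 3251 in C_1d replicates 2 and 3, 38.0 in C_1d replicate 1 and 88.0, 90.0 and 70.6 in C_5d, and fell by 5.37 ± 0.30 on the log2 scale without C_1d replicate 1 (adjusted p = 2.63e-08). CPR5, of the large family of chitin-binding cuticular proteins with the Rebers and Riddiford motif, fell from 513 and 382 (6.49 in C_1d replicate 1) to 10.3, 13.1 and 11.9. The differences of CPF2 and CPR5 with all 6 libraries were -3.21 and -3.20. CPR27, CPR12, Cpap3-b, apd-3 and Apd-1 (an apidermin, a small cuticle protein of bees) fell by 2.28, 2.25, 1.71, 1.73 and 1.64, where Apd-1 fell by 0.52 with quantile normalization without passing, and apd-3 is a gene of low level apart from Apd-3. The more abundant Apd-2 and Apd-3 overlapped between the ages, at 3525, 5390.4 and 6712 in C_1d against 6374, 6885 and 3413 in C_5d for Apd-2, and at 1716, 3492 and 4595 against 2876, 4553 and 1841 for Apd-3. Summed over 23 cuticle markers, the level was 6099 in C_1d replicate 1, 15231 and 17388 in the other C_1d libraries, 10539 and 12926 in C_5d replicates 1 and 2 and 6133 in C_5d replicate 3.

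TyHyd, Y-y and JHBP-1 are 3 single genes picked after their values were seen, because they were lower. None of the 3 passed the threshold with all 6 libraries. TyHyd, tyrosine hydroxylase, which makes the DOPA used for dopamine and for cuticle pigment, read 65.0 and 68.6 in C_1d replicates 2 and 3, 18.9 in C_1d replicate 1 and 19.8, 19.1 and 21.1 in C_5d. It fell by 1.74 ± 0.26 on the log2 scale without C_1d replicate 1 (adjusted p = 2.56e-04). Y-y, of the yellow family from which the royal jelly proteins derive, fell by 2.08 ± 0.35, and JHBP-1, a juvenile hormone binding protein, by 2.40 ± 0.23. Pburs, a subunit of bursicon, the hormone of cuticle tanning, read 1.54 and 1.26 in C_1d replicates 2 and 3 and 0.671, 0.428 and 0.316 in C_5d (-1.43 ± 0.39, adjusted p = 0.0174), but did not pass when C_5d replicate 3 was left out as well (adjusted p = 0.0604). Eth, the ecdysis triggering hormone, fell by 1.23 ± 0.40 (adjusted p = 0.0433) at levels of at most 0.548, and did not pass without C_5d replicate 3 either (adjusted p = 0.0971). Pburs and Eth differed by -0.98 and -0.90 with all 6 libraries and did not pass.

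Odorant binding proteins and chemosensory proteins, small carriers of hydrophobic ligands, went in both directions. Of 24 genes, 2 rose and 7 fell without C_1d replicate 1, beside 2.83% and 5.04% of all genes, and their median difference was -0.51. None of the 24 passed with all 6 libraries. Unscaled and without C_1d replicate 1, 6 rose and 4 fell, beside 1211 and 188 of all 9343 genes, and the median was 0.10. Obp14 fell from 81.8 and 146 (2.51 in C_1d replicate 1) to 8.52, 8.27 and 3.68, a log2 difference of -4.08 ± 0.43 (adjusted p = 1.08e-05), and to 0.857 to 1.77 in C_10d. The difference of Obp14 with all 6 libraries was -2.28. Obp13 and Obp17, which lie near Obp14 on LG15, fell by 3.47 ± 0.67 and 1.63 ± 0.32, and Obp10 by 1.06 ± 0.15, without C_1d replicate 1. Without C_1d replicate 1, Obp3 rose from 13.3 and 17.1 to 51.2, 61.3 and 27.4 (1.54 ± 0.41, adjusted p = 0.0156). With all 6 libraries it differed by 1.23. Among the chemosensory proteins CSP1 rose from 520.2 and 397 to 1213, 1229.7 and 950.4, by 1.30 ± 0.33, but C_1d replicate 1 at 2021 was over all C_5d libraries. CSP2, CSP3 and CSP4 fell by 2.16, 1.27 and 1.97, of which CSP3 was 0.07 higher with quantile normalization. Obp1, Obp2, Obp5 and Obp6, at 3.66 to 29.1 in C_5d replicate 3, were far lower there than in the other 5 libraries, where they ranged from 20.7 to 303, and did not pass the test, and without C_5d replicate 3 their log2 differences lay above 0. These 4 were named after their values were seen.

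**Figure D4:**
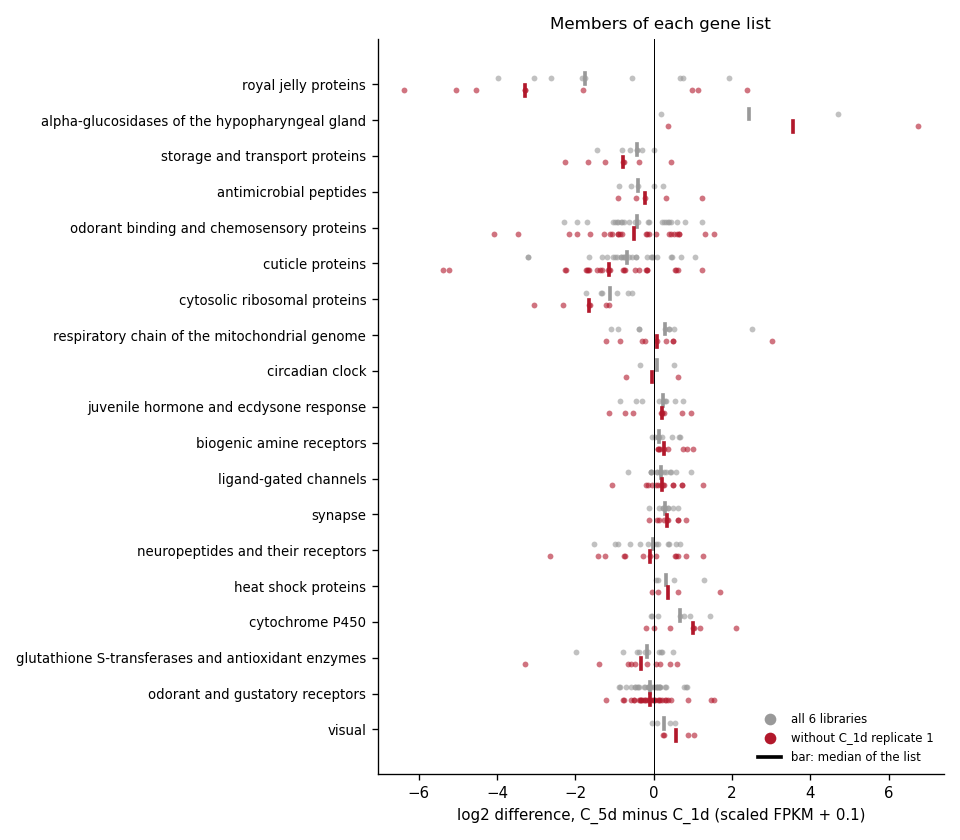
Log2 difference between C_5d and C_1d of each tested member of 19 gene lists, with all 6 libraries (grey) and without C_1d replicate 1 (red); points are genes and bars are medians of the list. Without C_1d replicate 1 the median of the royal jelly proteins lies at -3.28, that of the cuticle proteins at -1.13 and that of the synapse genes at 0.33.

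Of the ribosomal proteins of the cytosol, only the 6 genes matched by symbol or synonym were listed, and the values below are of these alone. Without C_1d replicate 1, 5 of the 6 were lower at 5 d, beside 5.04% of all genes. The median difference was -1.64 (-1.04 unscaled, where 3 fell, and -1.18 with quantile normalization, where 2 fell). With all 6 libraries the median was -1.12 and none passed. RpL32 read 749.7 and 962 in C_1d replicates 2 and 3, 115 in C_1d replicate 1 and 216, 255 and 90.7 in C_5d (-2.31 ± 0.35, adjusted p = 2.47e-04), and Rpl41 fell by 3.06 ± 0.48, both without C_1d replicate 1. The differences of RpL32 and Rpl41 with all 6 libraries were -1.35 and -1.73. Again without C_1d replicate 1, RpLP1, Rps14 and RpL35 fell by 1.62, 1.13 and 1.21. Rpl39, at 17.9, 66.2 and 4.47 in C_5d, then differed by -1.66 ± 0.70 without passing (adjusted p = 0.112). The summed level of these genes was lowest in C_5d replicate 3 (638) and C_1d replicate 1 (854), the libraries with the highest scaling factors, and 1573 to 5293 in the other 4. Whether this bears on the difference was not tested. Leaving out C_5d replicate 3 as well left 3 of 6 past the threshold.

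Storage proteins serve as amino acid reserves of the larva and pupa. Without C_1d replicate 1, Hex70a fell from 32.7 and 39.8 to 13.6, 13.0 and 7.81 (-1.69 ± 0.37, adjusted p = 0.00474) and Hex70c by 2.27 ± 0.28, at levels under 1. With all 6 libraries Hex70a and Hex70c differed by -0.81 and -1.44 and did not pass. Vg (vitellogenin), at 4.04, 16.8 and 13.0 in C_1d and 6.64, 6.38 and 5.72 in C_5d, and Tsf1 (transferrin), at 568, 199 and 281 against 299, 352 and 312, did not pass the test, although Tsf1 was 1.04 higher unscaled (adjusted p = 0.0191) and 1.202 higher with quantile normalization (adjusted p = 0.00145) without C_1d replicate 1. Of 10 antioxidant genes, 2 fell and none rose without C_1d replicate 1, beside 5.04% and 2.83% of all genes, with a median of -0.32. With all 6 libraries none passed. Unscaled and without C_1d replicate 1, 2 rose and 1 fell, beside 1211 and 188 of all 9343 genes, with a median of 0.28. GstS4, a glutathione S-transferase, fell from 19.3 and 14.7 (0.991 in C_1d replicate 1) to 1.80, 2.35 and 1.01, by 3.30 ± 0.34 (adjusted p = 9.47e-06), and Sod1, superoxide dismutase, fell by 1.39 ± 0.23, or by 0.38 with quantile normalization, which did not pass. Of 7 cytochrome P450 genes, 4 rose and none fell without C_1d replicate 1, beside 2.83% of all genes called higher, and none passed with all 6 libraries. LOC724946 (CYP6AS11) went from 4.09 and 4.89 to 23.2, 19.7 and 16.4 (2.11 ± 0.22, adjusted p = 9.72e-06), with 18.5 in C_1d replicate 1, and LOC551028 (CYP6AS13), Cyp6as5 and LOC551179 (CYP15A1, which makes juvenile hormone in insects) rose by 1.195, 1.02 and 1.01. Their median stayed positive under each scaling.

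The abundant antimicrobial peptide genes overlapped between the ages. Def1 (defensin 1) read 2816, 7246 and 9507 in C_1d and 4144, 5759 and 3574 in C_5d. LOC406142 (hymenoptaecin) read 10168, 2239 and 3120.4 against 1611, 2863 and 2462, and LOC406144 (abaecin) 2912, 1314 and 1962 against 2136, 3099 and 1179. None of the 5 genes passed the test with or without C_1d replicate 1, except that LOC406144 was 1.49 higher with quantile normalization without that library (adjusted p = 0.0260).

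Genes of nerve cell function were described in 4 lists. Of 9 synapse genes, 9 amine receptors, 14 ligand-gated channels and 13 neuropeptides and receptors, none passed with all 6 libraries, and without C_1d replicate 1 there were 0, 1, 2 and 3, beside 2.83% of all genes called higher and 5.04% called lower. Syt1 read 23.7, 25.0 and 22.3 in C_1d and 30.2, 26.1 and 35.3 in C_5d (0.36 ± 0.14, adjusted p = 0.0795), and LOC408465 and brp differed by 0.27 ± 0.15 and 0.33 ± 0.21. Unscaled, these differences were 0.97, 0.88 and 0.90, beside the 0.58 of the median gene. Then 2 of the synapse genes, 3 of the amine receptors and 3 of the channels were called higher, beside 1211 of all 9343 genes. The neuropeptides and their receptors went from 0 higher and 3 lower, with a median of -0.10, to 3 higher and 1 lower unscaled, with a median of 0.45. Glial GlnS differed by 0.25 ± 0.17, but by 1.15 with quantile normalization (adjusted p = 1.32e-04).

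SIFR, the receptor of the neuropeptide SIFamide, fell from 38.6 and 49.4 in C_1d replicates 2 and 3 (3.94 in C_1d replicate 1) to 6.60, 10.7 and 4.50, a log2 difference of -2.66 ± 0.31 (adjusted p = 3.04e-05). The difference of SIFR with all 6 libraries was -1.51. Grd, a subunit of ligand-gated chloride channels, read 18.9, 10.8 and 9.09 in C_1d and 23.6, 28.9 and 20.3 in C_5d without overlap (0.96 ± 0.23, adjusted p = 0.0568, and 1.27 ± 0.19, adjusted p = 2.66e-04, without C_1d replicate 1). The nicotinic receptor subunit nAChRa9 fell by 1.05 ± 0.23 without C_1d replicate 1 (adjusted p = 0.00406), though by 0.48 unscaled, which did not pass. With all 6 libraries it differed by -0.65. Dop1, a dopamine receptor, rose by 1.02 ± 0.28 without C_1d replicate 1 (adjusted p = 0.0189) and differed by 0.64 with all 6 libraries. The call rested on C_5d replicate 3 at 3.06 against 1.48 and 1.36 in the others. The chaperone Hsp90 read 109, 52.3 and 43.9 in C_1d and 152, 139.5 and 177 in C_5d (1.69 ± 0.27, adjusted p = 4.28e-04, without C_1d replicate 1), while Hsc70-4, the most abundant of the family, differed by 0.12 ± 0.20, or by 0.97 with quantile normalization.

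Of 4 opsins, Lop2 rose from 4.79 and 4.18 to 9.54, 9.02 and 9.16 without C_1d replicate 1 (1.03 ± 0.14), and Lop1, the opsin for long wavelengths, differed by 0.88 ± 0.19, from 246 and 230.2 to 407, 416 and 493. C_1d replicate 1 was over all C_5d libraries for both, at 12.4 and 624. Of 30 odorant and gustatory receptors tested without C_1d replicate 1, Or63 and Or107 rose and LOC100578724 (Or151) fell, all at levels under 2.2. Of all genes, 2.83% were then called higher and 5.04% lower. No receptor passed with all 6 libraries. None of 9 genes of the juvenile hormone and ecdysone response, none of 9 genes of the mitochondrial respiratory chain and neither of the 2 clock genes passed the test with or without C_1d replicate 1. Unscaled and without that library, 2, 1 and 1 of them were called higher, beside 1211 of all 9343 genes.

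The same ages were compared in the dinotefuran-fed bees, whose libraries are separate from those of the controls. There, 174 genes were higher (1.86%) and 243 lower (2.6%) in DT_5d than in DT_1d. Of the 735 genes called in controls without C_1d replicate 1, 246 were called there in the same direction, 80 higher and 166 lower, and 0 in the opposite one, which is 33.5% of the 735 and 59.0% of the 417. The sign was the same in 715 of the 735 (97.3%), against 72.8% of all genes tested. Of the 32 genes called with all libraries, 30 had the same sign and 20 were called in the same direction. In the 417 genes called from DT alone, C_1d replicate 1 minus the other C_1d libraries had the sign of the age difference in 392 (94.0%), against 70.4% of all genes tested.

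**Figure D5:**
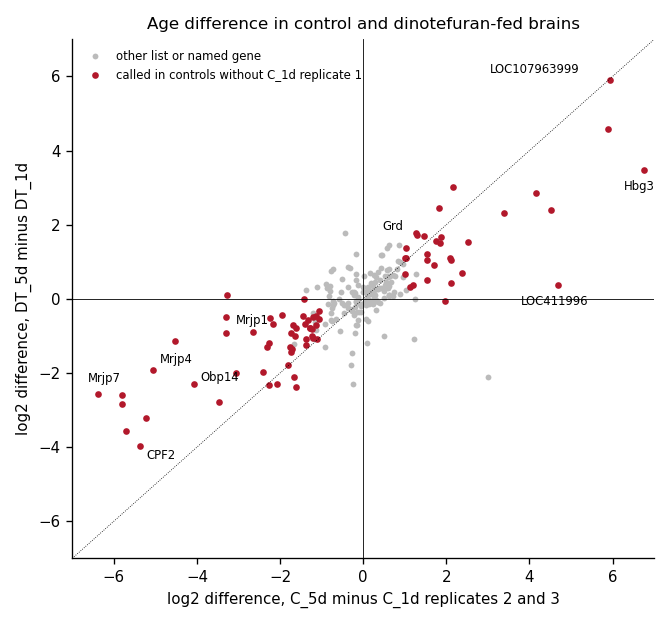
Log2 difference with age in dinotefuran-fed brains (DT_5d minus DT_1d, vertical) against that in control brains without C_1d replicate 1 (horizontal), for the list members and named genes; red points passed the threshold in controls and the dotted line marks equal differences. Mrjp7 lies at -6.39 in controls and -2.56 in fed bees, and LOC107963999 at 5.93 and 5.90.

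A test of the difference between the age differences found no gene with all libraries (smallest adjusted p = 0.0908, 197 genes at an unadjusted p under 0.05) and 13 genes without C_1d replicate 1. Mrjp7 was one of them, with DT_1d at 938 to 1579.8 and DT_5d at 179 to 291, a smaller decrease than in controls (adjusted p of the difference 1.88e-04). LOC411996, at 0.0157 and 0 in C_1d replicates 2 and 3, 9.52 in C_1d replicate 1 and 2.00, 2.62 and 3.61 in C_5d, did not move that way in fed bees, where DT_1d read 1.39 to 3.20 and DT_5d 2.14 to 4.03. LOC107965323, one of the 32, rose by 1.63 ± 0.31 in controls and differed by 0.43 in fed bees (adjusted p of the difference 0.0368 without C_1d replicate 1 and 0.530 with it). Mrjp1 and Mrjp3 were at 25410.0 to 44788 and 10073 to 15695 in DT_5d, several times their C_5d levels. For them the difference between the age differences was not past the threshold (adjusted p = 0.366 and 0.254 without C_1d replicate 1). For Mrjp1 the paper reports the reverse, a lower level in fed bees than in controls. It does so in its list for the middle age and in its quantitative PCR for the age of DT_5d. The cause of this conflict over Mrjp1 was not tested.

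Among the lncRNA transcripts, non-coding RNAs that the authors assembled or took from the annotation, 4 of 4378 were upregulated at 5 d (0.0914%) and 4 downregulated (0.0914%) with all 6 libraries, and 65 of 4284 (1.52%) and 58 (1.35%) without C_1d replicate 1. XR_120251.4, listed under LOC100578777, read 2.49, 0.151 and 0.216 in C_1d and 8.49, 6.25 and 6.72 in C_5d (3.61 ± 0.66, adjusted p = 0.0419, and 4.68 ± 0.38 without C_1d replicate 1). TCONS_00024851 and XR_003306331.1 rose by 1.82 ± 0.32 and 1.64 ± 0.31. Among those called only without C_1d replicate 1, TCONS_00061230 fell from 14.1 and 18.3 (0.616 in C_1d replicate 1) to 1.25, 1.60 and 0.623, and XR_003305349.1 from 39.2 and 43.6 (2.32) to 5.47, 6.24 and 2.75.

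A pair of transcripts of one assembled locus, XLOC_017309, set all 3 C_1d libraries apart from C_5d. TCONS_00054972 read 0.989, 1.35 and 2.103 in C_1d and was listed at 0 in every C_5d and C_10d library (adjusted p = 6.65e-04), whereas TCONS_00054973 read 0.109, 0 and 0.103 in C_1d and 1.07, 1.42 and 0.840 in C_5d (2.88 ± 0.33, adjusted p = 6.65e-04). C_1d replicate 1 lay with the other C_1d libraries in both. The same held for TCONS_00057651, at 0.148, 0.164 and 0.238 in C_1d and listed at 0 in C_5d and C_10d, and for TCONS_00060681, at 0.175, 0.269 and 0.162 in C_1d and at most 0.0314 in C_5d. XR_003306516.1 fell from 0.127, 0.216 and 0.331 to at most 0.0113. In the DT_1d libraries whose lncRNA values were used, TCONS_00054972 was listed at 0 and TCONS_00054973 read 1.80 and 1.59, so that the pattern of C_1d was not shared by all bees of 1 d.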

How the data were processed

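RNA of brains pooled by 15 was sequenced by the authors. Each transcript has a deposited FPKM value for each library. According to the methods and labels, reads were aligned to Amel_HAv3.1 with Hisat2, transcripts assembled with StringTie and merged with Cuffmerge, and FPKM computed with Cuffdiff of Cufflinks v2.1.1. FPKM carries no read depth, so precision is given as the spread between libraries. All mRNA transcripts of a gene carry the value of the gene, which gave 9939 genes. Of 6760 lncRNA transcripts, those in DT_1d replicate 1 equal those in DT_10d replicate 1, and that library was left out for lncRNAs, which leaves 17.

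Values were divided by median-ratio factors, and log2(scaled FPKM + 0.1) was fitted, for genes that reached FPKM 0.1 in 3 or more libraries, with limma 3.58.1 in R 4.3.3 (lmFit on 6 group means over all libraries, eBayes with a trend), separately for genes and lncRNAs. Differences understate the change of low genes. Called means a Benjamini-Hochberg adjusted p under 0.05 over all genes tested and a difference beyond 1. No p was adjusted over a list alone. The procedure was tested on simulated data in which each gene had the same spread in every library. They held no outlying library like C_1d replicate 1, so that case was not tested. Members, lists and thresholds were chosen with earlier results of these data known.

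Groups and replicate numbers came from the labels. The labels do not say whether the replicate numbers pair samples, and the fit holds no term for them. Named genes are, for each direction, the 12 that changed most among called genes with groups that do not overlap and a higher mean of FPKM 1 or more (here 12 and 3), up to 6 called and the 3 most abundant members of each list, lncRNAs by the same rule (here every one called), and markers. As no list member was called with all libraries, members called without C_1d replicate 1 were taken. Mrjp8, the further genes called without C_1d replicate 1 or with a difference between controls and fed bees, and others marked as such were chosen after their values were seen. Gene lists were matched by symbol or synonym from RefSeq (9935 of 9939 gene numbers matched), since the reference used gives no descriptions. Cell cycle genes, glycolysis genes, immediate early genes and amylase of the gland were therefore not used here. Apisimin and glucose oxidase of the gland were planned by locus number but were not used either. Alternatives are given in the closing section. Python 3.11.15, numpy 2.4.6, pandas 2.3.3 and matplotlib 3.10.9 were used for summaries and plots.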

Additional observations from a re-analysis of the deposited data

Results flagged for a closer look

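The age difference of the controls minus that of dinotefuran-fed brains passed the limma test of the difference itself (adjusted p under 0.05 and a size beyond 1 on the log2 scale) in 6 lncRNA transcripts with all libraries used and in 13 genes without C_1d replicate 1. Among the lncRNAs this difference was -3.92 for TCONS_00054972 and 2.86 for TCONS_00054973, the pair of XLOC_017309, -1.88 for TCONS_00000165, -2.60 for TCONS_00076809, -3.95 for TCONS_00081866 and -3.53 for XR_003305318.1. The DT_1d group held only 2 libraries in that fit. Without C_1d replicate 1 the limma adjusted p of the difference was 0.0415 for TCONS_00054972, TCONS_00054973 and TCONS_00081866. It was then 0.0707 for TCONS_00000165, TCONS_00076809 and XR_003305318.1, which did not pass. In TCONS_00000165 and TCONS_00076809 the control difference itself was only 0.12 and 0.11 with all libraries used, at levels under 1 in the libraries of 1 d and 5 d.

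Among the genes the difference was negative, that is, the control change was lower than that of the fed bees, in Mrjp7 (-3.83), LOC725804 (-3.19), LOC410038 (-2.98), LOC100578625 (-2.27), LOC725215 (-1.92), LOC100576410 (-1.53) and LOC725238 (-1.43). It was positive in LOC411996 (4.32), LOC724335 (1.98), LOC107965323 (1.68), LOC724717 (1.31), LOC410114 (1.31) and LOC408532 (1.30). With C_1d replicate 1 in the fit none of these genes passed.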

How the results depend on the processing

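The number of genes called with all 6 libraries (25 higher and 7 lower at 5 d) depended on most settings. It was 0 and 0 unscaled, 30 and 7 with quantile normalization, 20 and 1 with a pseudocount of 1, 17 and 5 with 0.01, 16 and 4 without the filter, 37 and 8 for a mean FPKM of at least 1, 0 and 1 with only the 6 libraries in the fit, 18 and 4 without the trend, 337 and 512 with library weights from limma arrayWeights, which did not fully converge, 41 and 23 without a fold threshold and 16 and 3 when adjusted together with lncRNAs. Leaving out 1 library gave 1 to 264 and 0 to 471, with the highest values in both cases without C_1d replicate 1. Without that library, settings added after seeing the data gave 1211 and 188 unscaled, 270 and 349 with quantile normalization, 215 and 347 with only the libraries of the comparison, and 264 and 401 without C_5d replicate 3 as well.

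For lncRNAs the 4 higher and 4 lower became 1 and 2 unscaled, 2 and 5 with quantile normalization, 1 and 1 with a pseudocount of 1, 2 and 3 with 0.01, 6 and 1 for a mean FPKM of at least 1, 0 and 1 with only the 6 libraries, 2 and 3 without the trend, 21 and 8 with library weights, 1 to 65 and 1 to 58 leaving out 1 library, and 62 and 47 without both C_1d replicate 1 and C_5d replicate 3. TCONS_00057651 and TCONS_00060681 did not pass the filter without C_1d replicate 1. The test of the difference between controls and fed bees called 0 genes, 0 unscaled, 1 with a pseudocount of 1, 1 with quantile normalization and 13 without C_1d replicate 1.

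With the replicate number as a block, 4 genes were higher and 2 lower, 1 lncRNA higher and 2 lower, and 0 differed between controls and fed bees. Deviations of C_1d and C_5d libraries with the same number correlated at -0.17, 0.09 and -0.38, and those with different numbers at -0.26 to 0.32. The deviations are from group means that hold C_1d replicate 1 and C_5d replicate 3. They therefore cannot decide whether libraries with the same number share a colony, cage or batch.

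Directions turned in some genes, none of which had passed with all 6 libraries. With all libraries, quantile normalization gave 0.13 for Mrjp5, 0.77 for Apd-3, 0.15 for CSP3, 0.031 for Rps14 and 0.22 for Def1, and no scaling 0.19 for Apd-3. Without C_1d replicate 1, Apd-2 was at -0.18, also with only the libraries of the comparison, Apd-3 at 0.14 unscaled and 0.85 with quantile normalization, CSP3 at 0.067 and Def1 at 0.060 with quantile normalization, and LOC406142 at 0.37 unscaled and 0.97 with quantile normalization. With library weights Obp1 was at 0.024 and Obp5 at 0.010. Leaving out libraries moved Mrjp5 from -2.05 to 0.13, Apd-2 from -0.18 to 0.40, Apd-3 from -0.47 to 0.26, Tsf1 from -0.32 to 0.46, LOC406144 from -0.30 to 0.68, TpnCIIa from -1.23 to 0.044, Obp1 from -1.55 to 0.19, Obp2 from -1.51 to 0.14, Obp5 from -1.26 to 0.092 and Obp6 from -1.32 to 0.12. The causes were not tested. FPKM carries no read depth, and read numbers of the libraries were not used here.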
